A study of Homo sapiens with 9 samples.

Results

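The clustered protocadherin genes are 54 of the 35876 gene symbols in the table. They were taken by symbol: PCDHA or PCDHAC with a number for the alpha cluster (16 genes), PCDHB with a number for the beta cluster (16 genes), and PCDHGA, PCDHGB or PCDHGC with a number for the gamma cluster (22 genes). No measured value entered that symbol rule, but the family was chosen with earlier results of these data known. The RNA came from HEK293 cells, an established line of human embryonic kidney origin, and was sequenced as 9 libraries in 3 equal groups: CC_Cas9, CC_Cas9_Cre and CC_Cas9_Flpo, called Cas9, Cre and Flpo here. All groups therefore carry Cas9, an RNA-guided DNA nuclease. The Cre and Flpo groups add a site-specific recombinase, which acts on loxP and FRT sites respectively. The series concerns a chemically induced, reversible knockout system. The labels explain neither the prefix CC nor any target gene, promoter or clone. They also do not say whether replicates were separate cultures, so the p-values measure only the spread between these samples.

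Clustered protocadherins are cadherin-family adhesion proteins of the cell surface, best known for giving neurons individual identities by which branches of the same cell avoid each other. Each alpha or gamma gene has its own large first exon, with its own promoter, which is spliced to constant exons shared by the whole cluster. Beta genes consist of a single large exon and have no shared constant part. In neurons a cell uses a small, largely random subset of these promoters, together with C-type genes at the ends of the alpha and gamma clusters that are used more widely. Promoter choice involves CTCF, a DNA-binding protein that works with the cohesin ring, and DNA methylation keeps unused promoters silent.

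The promoters are shown first because the family is defined by them. A short conserved element precedes most of the variable exons, and its core holds the letters CGCT. RefSeq promoter windows (GRCh38.p14, 250 bases before to 50 after the start) were matched for 47 of the 54 genes. The 9 letters GGTGGCGCT, chosen after reading these windows and searched on both strands, occurred in 13 of the 14 beta genes in that table and in 0.501% of all 35116 windows. They occurred in none of the 13 alpha and 20 gamma genes there. PCDHB1 was the beta gene without them. In the beta windows below, for 4 beta genes with enough counts to be tested, the capitals mark these 9 letters. The stretches lie at chr5:141094525-141094584, chr5:141187055-141187114, chr5:141213846-141213905 and chr5:141182291-141182350, all on the plus strand, in the order printed.
PCDHB2: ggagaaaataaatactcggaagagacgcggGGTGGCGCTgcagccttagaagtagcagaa
PCDHB9: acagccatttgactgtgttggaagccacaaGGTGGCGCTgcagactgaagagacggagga
PCDHB13: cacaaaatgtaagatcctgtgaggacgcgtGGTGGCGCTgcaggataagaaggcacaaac
PCDHB16: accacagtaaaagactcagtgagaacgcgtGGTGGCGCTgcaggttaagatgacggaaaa

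The 4-letter core CGCT, which is contained in the longer motif, is common, since 70% of all windows hold it on either strand. It occurred in 12 of 13 alpha genes, all but PCDHA9, and in 14 of 14 beta and 20 of 20 gamma genes. Alpha and gamma windows are shown because their longer context differs from the beta context. Here the capitals mark CGCT in windows of 3 well-counted genes at chr5:140806965-140807024, chr5:140855827-140855886 and chr5:141373821-141373880, plus strand.
PCDHA4: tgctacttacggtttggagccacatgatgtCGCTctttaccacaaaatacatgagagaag
PCDHA10: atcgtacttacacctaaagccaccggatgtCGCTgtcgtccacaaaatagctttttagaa
PCDHGA6: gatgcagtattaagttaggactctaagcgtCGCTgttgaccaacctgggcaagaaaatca
PCDHB1 is shown as the beta gene that lacks the longer motif, with its 250 bases before the start (chr5:141051124-141051373, plus strand) and CGCT in capitals.
PCDHB1: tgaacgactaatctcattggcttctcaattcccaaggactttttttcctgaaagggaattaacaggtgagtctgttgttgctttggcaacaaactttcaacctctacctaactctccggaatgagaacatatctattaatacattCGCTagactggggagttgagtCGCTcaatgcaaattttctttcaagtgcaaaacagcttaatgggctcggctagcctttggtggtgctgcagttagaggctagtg

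The libraries differed widely in depth, and this touches every value here. The smallest total was 213907 estimated counts (Cre replicate 2) and the largest 8833491 (Flpo replicate 1), 41.3 times as many, and every Flpo library was deeper than every other library. Cre replicate 2, the shallowest library, and Flpo replicate 2, whose protocadherin counts differed most from those of its own group, stand apart, so results are also given without them. Markers of HEK293 were partly present: KRT8, KRT18, VIM and NEFL had counts in all 9 libraries, while PAX2 had 1 count in all. KRT18 and KRT8 were lower in Cre than in Flpo, with log2 fold changes of −4.43 and −3.36 (edgeR adjusted p = 0.0167 and 0.0199). The other tested HEK293 markers, VIM and NEFL, went the other way, at 0.23 and 1.62, and did not pass (edgeR adjusted p = 0.815 and 0.0501). The extraction protocol speaks of livers, and the liver gene ALB had 5 counts, all in Flpo replicate 2. The liver markers differed, since TF had counts in all 9 libraries, from 8.32 to 102 CPM. APOA1 also had counts in all 9 libraries, 35 in sum. Collagen genes among the fibroblast markers moved with the groups in the direction opposite to KRT18 and KRT8. The summed level of 6 fibroblast markers ran from 550.1 to 6482 CPM in Cre libraries, with the top value in Cre replicate 2. It ran from 264 to 894 CPM in Cas9 libraries and 253 to 327 CPM in Flpo libraries. COL1A1, COL1A2 and COL3A1 were higher in Cre than in Flpo by edgeR's test. DCN differed by 1.84 on the log2 scale without passing (edgeR adjusted p = 0.188). LUM levels overlapped between the groups. PDGFRA had no counts in Cre replicates 2 and 3 and its top level, 5.11 CPM, in Flpo replicate 2. Fewer cells of a type and less RNA per cell cannot be told apart in such bulk samples, and the part of these cells in any result was not tested. CPM, the usual depth-scaled count, is relative here to library totals scaled by TMM, a method that aligns the bulk of genes between libraries.

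Most clustered protocadherin genes had almost no counts in these cells. Of the 54, 3 had none in any library (PCDHA2, PCDHGB2 and PCDHA14, the last of which is annotated as a pseudogene), and 32 stayed under 10 counts in every library. Only 14 had counts in all 9 libraries, and these same 14 passed edgeR's filter on low counts: 3 alpha, 6 beta and 5 gamma genes. The other 40 could not be tested, and their mean level over the 9 libraries was at most 3.71 CPM. The alpha genes that passed were PCDHA4, PCDHA9 and PCDHA10. The beta genes were PCDHB1, PCDHB2, PCDHB9, PCDHB11, PCDHB13 and PCDHB16. The gamma genes were PCDHGA5, PCDHGA6, PCDHGA8, PCDHGB6 and the C-type PCDHGC3. Of the C-type genes, which are widely used in neurons, only PCDHGC3 was among them.

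Of the 14 tested genes, 13 shared a feature of their transcripts that the choice by symbol did not use, and PCDHGC3 did not have it. For every gene, the share of its transcript sequence was computed that consists of 24-base words also present in at least 10 genes outside the family (GENCODE release 29, both strands). This repeated share was above 1%, a limit chosen after the values were seen, in 13 genes, from 1.92% in PCDHA10 to 6.496% in PCDHB1, and all 13 were tested. In the other 41 genes it was at most 0.97%, and PCDHGC3, at 0%, was the only tested gene among them. The summed counts of the 13 ran from 68.9 to 6599 with a median of 494, and those of the 41 from 0 to 511 with a median of 7.76. For each of the 13 genes, the positions of such words were counted in the transcript that holds most of them. All 3497 positions lay outside the coding sequence, 3436 after it and 61 before it. The longest annotated transcript was a single exon in 12 of the 13 genes, and in 12 of the other 41. Among tested genes outside the family, 57.2% had a repeated share above 1%, counting words in 10 or more other genes of any kind, against 22.4% of genes with too few counts to test. The part of reads from repeated sequence in the protocadherin counts was not tested.

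**Figure D1:**
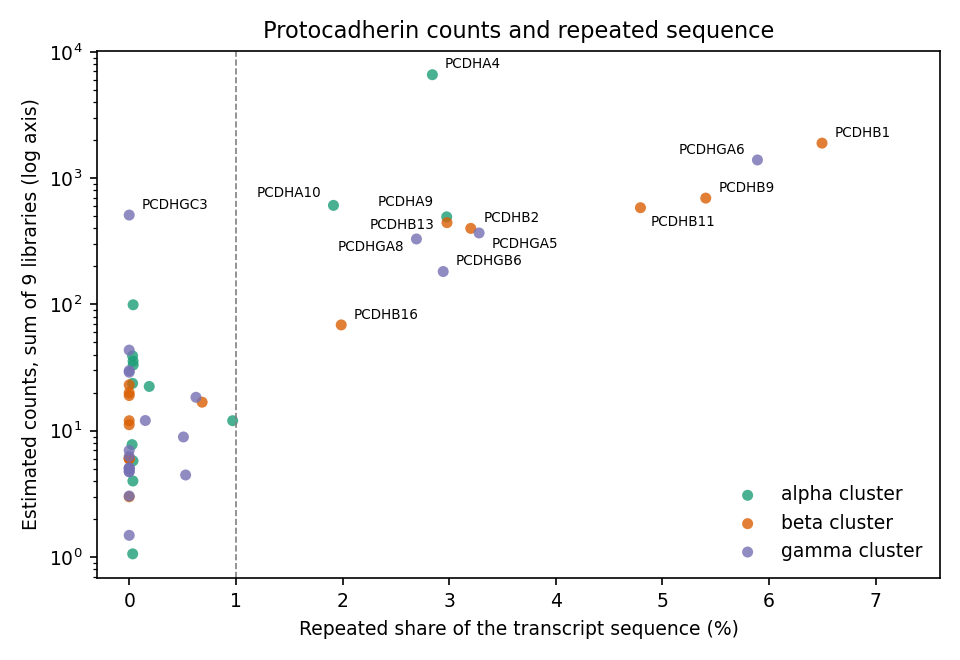
Summed estimated counts over the 9 libraries (log axis) against the repeated share of the transcript sequence (percent) for the 51 clustered protocadherin genes with a count, coloured by cluster; the dashed line marks 1% and the 14 tested genes are named. The 13 genes right of the line have 68.9 counts or more, and PCDHGC3 is the only tested gene left of it.

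More of the 41 genes with little repeated sequence were detected in the deeper libraries. All 13 other genes had a count in each library, including Cre replicate 2, so at full depth their number cannot show a change with depth. Of the 41, the number with a count was 6, 8 and 20 in Cas9 replicates 1, 2 and 3, then 12, 3 and 5 for Cre and 24, 22 and 27 for Flpo, again by replicate. The highest numbers thus belong to the 4 deepest libraries. At the total of the smallest library, the number of the 54 genes expected with a count would be between 12.5 and 16.2 in every library, against 16 to 40 at full depth. Of the 41 alone it would be between 1.70 and 5.56, and the 3 groups overlapped. Of the 13 it would be between 8.50 in Flpo replicate 3 and 13 in Cre replicate 2.

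**Figure D2:**
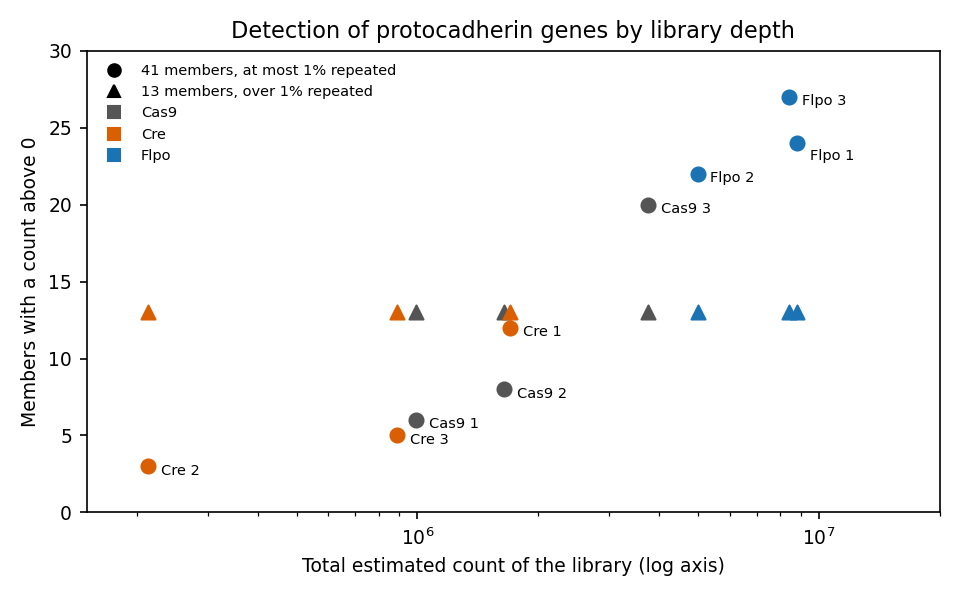
Number of clustered protocadherin genes with a count above 0 in each library against the library's total estimated count (log axis), for 41 genes with a repeated share of at most 1% (circles) and 13 above it (triangles), coloured by group. Circles climb from 3 in the shallowest Cre library to 27 in Flpo replicate 3, while triangles stay at 13.

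Summed over a cluster, the beta genes were highest in the Cre group. Their summed level was 442, 190.5 and 98.9 CPM in Cas9 replicates 1, 2 and 3. The 3 Cre libraries stood at 259.8, 501 and 547 CPM and the 3 Flpo libraries at 78.1, 160.3 and 98.4 CPM. Every Cre library lay above every Flpo library, and the mean log2 difference was 1.95 where the spread between replicates was 0.56 (SD, n = 3 each). Against Cas9 the log2 difference was 1.03 for Cre and −0.92 for Flpo, with spreads of 0.87 and 0.85, and the groups overlapped. No p-value is given for these sums. The make-up of the sum differed between libraries. PCDHB1, PCDHB9 and PCDHB13 held 73.7% to 92.0% of the beta counts in the Cas9 libraries and 91.4% to 95.8% in the Cre libraries. In the Flpo libraries they held 37.1%, 82.8% and 15.4%, while PCDHB2 and PCDHB11 held 56.0%, 12.3% and 76.2%.

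The alpha sum of the Flpo group was set by a single gene in a single library. It was 170, 112 and 92.8 CPM in the Cas9 replicates, 97.4, 347 and 182 CPM in the Cre replicates, and 99.4, 1430.3 and 93.3 CPM in the Flpo replicates. PCDHA4 held 5332 of the 5597 alpha counts in Flpo replicate 2. Without that library the Flpo mean fell from 541 to 96.3 CPM. The log2 difference between Cre and Flpo was −0.37 with a spread of 1.71 between replicates, and all 3 groups overlapped. It turned to 0.93 without Flpo replicate 2, to 0.08 without Cre replicate 1 and to 0.42 without TMM.

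The gamma sums were the most even. They were 166, 107 and 123 CPM in the Cas9 replicates, 113, 263 and 188 CPM in the Cre replicates, and 77.3, 176 and 79.5 CPM in the Flpo replicates. Cre exceeded Flpo by 0.79 on the log2 scale, with a spread of 0.64 and overlapping libraries. Sums within a cluster matter here because alpha and gamma genes share their constant exons. Over the 15 protein-coding alpha genes, a median of 56.2% of a gene's 24-base words also occurred in another family member. For gamma genes the median was 45.8%. The split of reads between members is therefore uncertain. The 3 tested alpha genes were below their median, at 26.5% for PCDHA4, 38.0% for PCDHA10 and 42.6% for PCDHA9. The tested gamma genes ran from 35.5% in PCDHGA6 to 57.7% in PCDHGA8. For beta genes the median was 23.8%, and for PCDHB1 it was 1.26%.

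**Figure D3:**
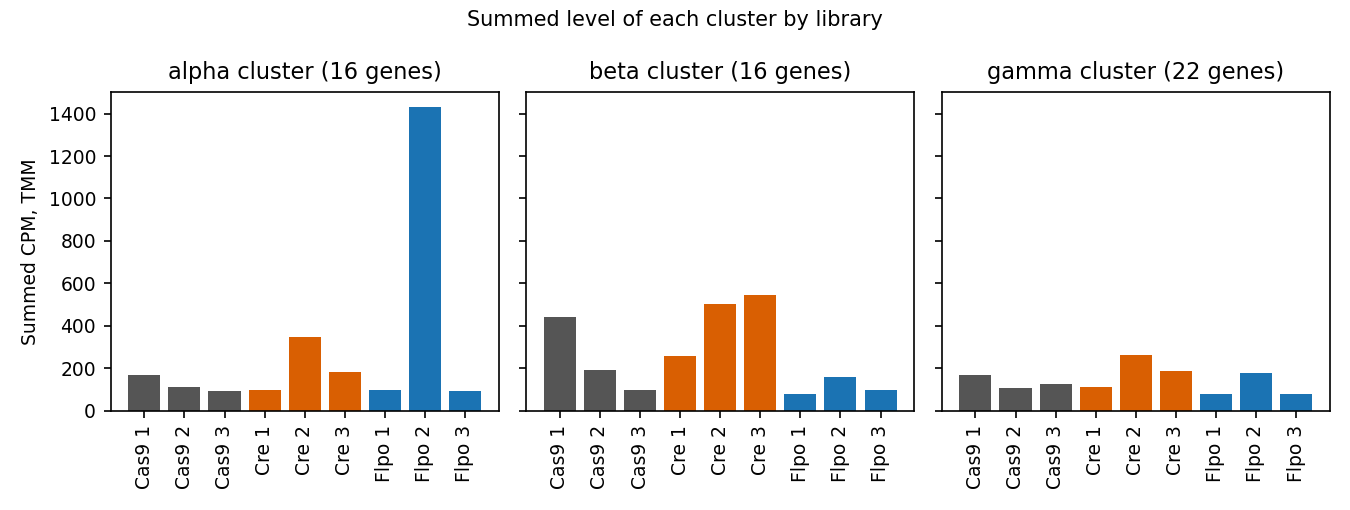
Summed CPM (TMM-scaled) of the alpha, beta and gamma clusters in each of the 9 libraries, one bar per library from 0, coloured by group. The alpha bar of Flpo replicate 2 reaches 1430.3 CPM, and the 3 beta bars of the Cre group, from 259.8 to 547 CPM, all exceed the 3 Flpo bars.

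Between Cre and Flpo, the recombinase groups, 4 of the 14 tested genes passed edgeR's quasi-likelihood test at an adjusted p of 0.05. PCDHB13, PCDHB9 and PCDHA10 were higher in the Cre group and PCDHB11 was lower. Over all 11905 genes tested, 20.5% passed, 6.17% higher and 14.3% lower in Cre. The share of 28.6% among the 14, over both directions, was not far from the background. By direction, 3 of the 14 were higher and 1 lower, where more of all genes were lower than higher. Of the 14, 10 had a positive and 4 a negative log2 fold change, with a median of 1.19, against a median of −0.34 over all genes tested. Values did not overlap between the groups in 8 of the 14, where 43.3% of all genes did not overlap.

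PCDHB13, a beta protocadherin on chromosome 5 (141213919 to 141218979, plus strand, 1 exon, protein coding, GENCODE release 29), differed most. Its level was 32.0, 135 and 105.5 CPM in Cre replicates 1, 2 and 3, and 4.09, 9.84 and 2.56 CPM in the Flpo replicates. The Cas9 replicates stood at 61.7, 19.5 and 9.48 CPM. Each Cre library lay above each Flpo library, with Cas9 overlapping both. edgeR gave a log2 fold change of 4.03 (SE 0.84) and an adjusted p of 0.0167, and the change was 4.37 after the median of all genes was subtracted. SE is the standard error. In estimated counts these levels are 65.7, 36.2 and 123 in Cre and 23.7, 38.5 and 16.1 in Flpo, which is to say that the raw counts overlapped while the library totals did not.

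PCDHB9 (chromosome 5, 141187127 to 141191541, 1 exon) is a close relative whose exon overlaps another annotated gene. Without a stated use of strand, reads of the overlapping genes cannot be told apart. Its level was 68.8, 101 and 144 CPM in the Cre replicates, 4.99, 21.1 and 3.24 CPM in the Flpo replicates, and 90.3, 40.2 and 13.9 CPM in the Cas9 replicates. As for PCDHB13, Cre and Flpo did not overlap and Cas9 ranged across the gap. edgeR gave a log2 fold change of 3.44 (SE 0.83) and an adjusted p of 0.0200, and the change was 3.78 after the median was subtracted.

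PCDHA10 (chromosome 5, 140855883 to 141012344) is an alpha gene, also with an exon that overlaps another gene. It stood at 34.5, 51.0 and 82.7 CPM in the Cre replicates, 9.47, 28.2 and 9.02 CPM in the Flpo replicates, and 46.6, 38.3 and 23.9 CPM in the Cas9 replicates. The highest Flpo library, replicate 2, came close to the lowest Cre library. Its log2 fold change was 1.87 (SE 0.60), or 2.21 after the median was subtracted, at an adjusted p of 0.0450 in edgeR.

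PCDHB11 (chromosome 5, 141199582 to 141203779, 1 exon, overlapping another gene) went the other way. Its level was 3.48, 7.13 and 8.34 CPM in the Cre replicates and 27.4, 10.5 and 50.2 CPM in the Flpo replicates. The Cas9 replicates, at 8.66, 3.76 and 9.62 CPM, overlapped the Cre replicates and lay below every Flpo library. edgeR gave a log2 fold change of −2.26 (SE 0.75) and an adjusted p of 0.0484, and the change was −1.92 after the median was subtracted.

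**Figure D4:**
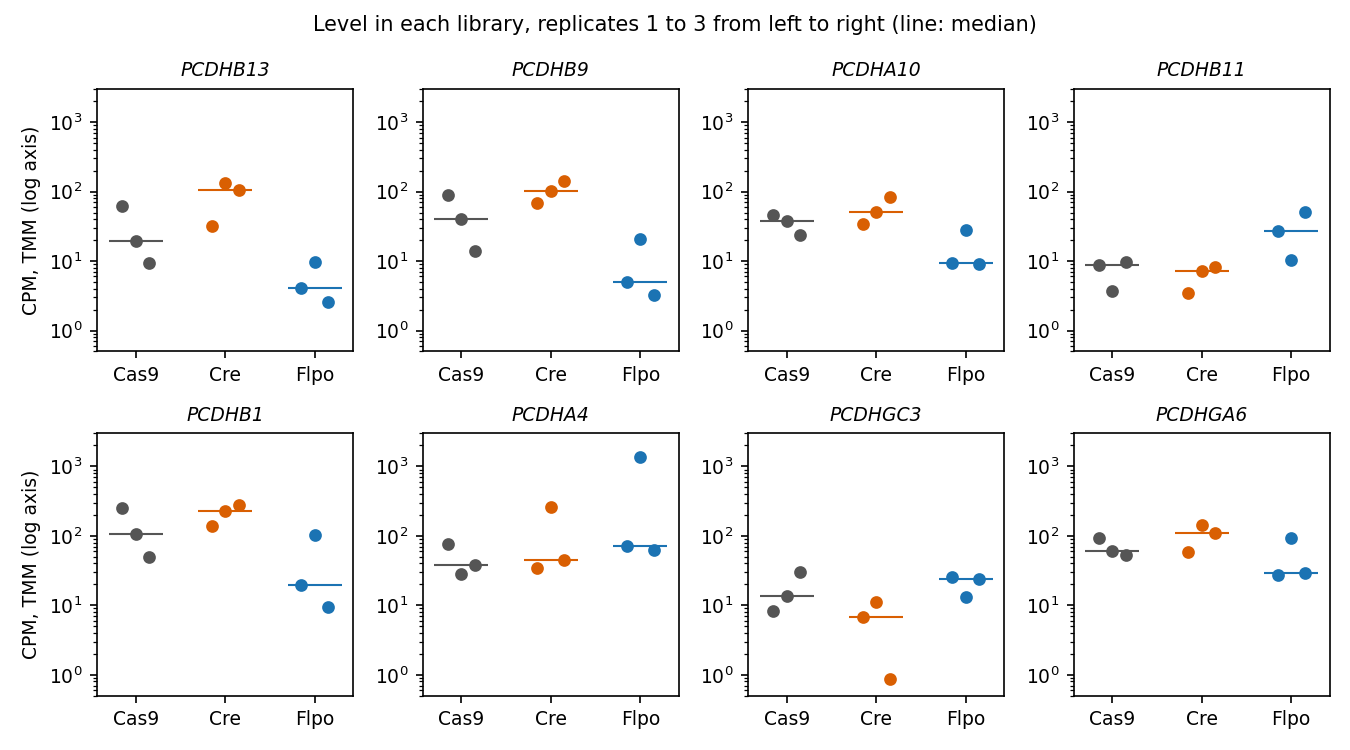
Level in CPM (TMM-scaled, log axis) in each library for 8 clustered protocadherin genes, 3 points per group for replicates 1 to 3 and a line at the median. For PCDHB13 and PCDHB9 the 3 Cre points lie above the 3 Flpo points, for PCDHB11 below them, and PCDHA4 shows a single Flpo point at 1363 CPM.

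The other 10 tested genes did not pass between Cre and Flpo. PCDHGB6, a gamma B gene, was just outside the threshold, at 2.39 on the log2 scale (SE 0.80, adjusted p = 0.0501 in edgeR). It stood at 16.3, 37.4 and 23.1 CPM in the Cre replicates and 3.35, 9.84 and 1.07 CPM in the Flpo replicates. PCDHB1, the beta gene with the most counts, was at 137, 226 and 274 CPM in Cre, 19.9, 102 and 9.32 CPM in Flpo and 254.6, 105 and 49.5 CPM in Cas9. Its log2 fold change was 2.28 (SE 0.84, edgeR adjusted p = 0.0667), although Cre and Flpo did not overlap. PCDHB16 differed by 2.13 (adjusted p = 0.112 in edgeR) and had at most 10 counts in any library. PCDHA9 differed by 1.08, PCDHGA8 by 1.31, PCDHGA6 by 1.04 and PCDHGA5 by 0.40, all with overlapping groups. The lower 3 besides PCDHB11 were PCDHA4 at −2.19, PCDHGC3 at −1.97 and PCDHB2 at −0.94.

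**Figure D5:**
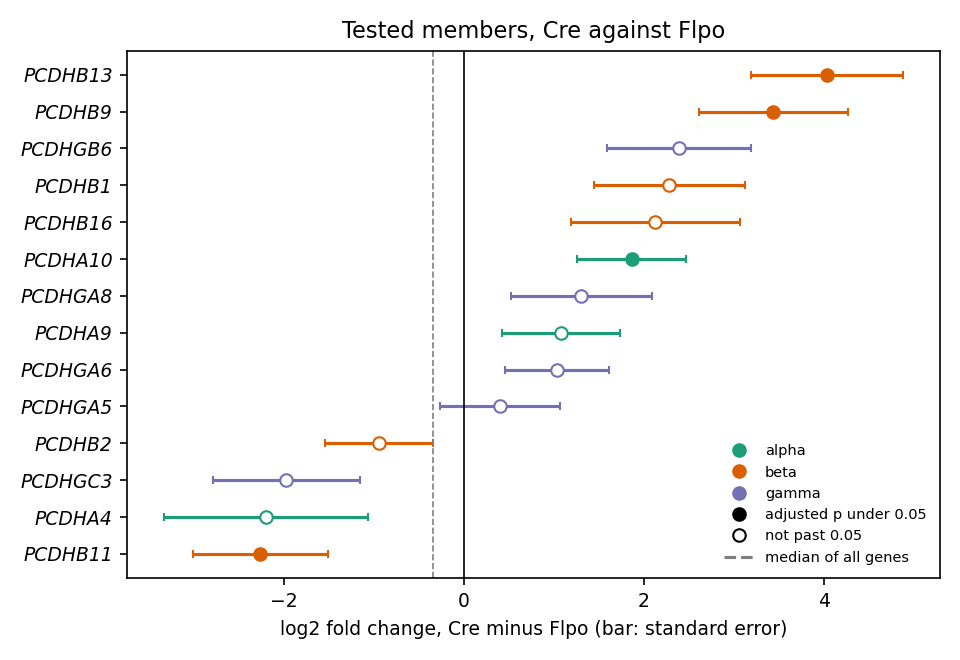
Log2 fold change between Cre and Flpo (positive: higher in Cre) with standard error for the 14 tested clustered protocadherin genes, coloured by cluster; filled points passed an adjusted p of 0.05 and the dashed line is the median of all genes, −0.34. PCDHB13 at 4.03 and PCDHB11 at −2.26 are the extremes.

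Of the gamma A genes, PCDHGA6 had the highest level, at 94.4, 61.1 and 53.8 CPM in the Cas9 replicates, 57.9, 141 and 109 CPM for Cre and 27.6, 91.7 and 29.3 CPM for Flpo. PCDHGA8 stood at 28.6, 10.6 and 13.8 CPM for Cas9, 13.2, 45.9 and 30.1 CPM for Cre and 6.98, 24.1 and 3.10 CPM for Flpo. PCDHGA5 stood at 18.8, 11.8 and 16.3 CPM for Cas9, 14.99, 23.5 and 21.9 CPM for Cre and 7.70, 30.5 and 6.59 CPM for Flpo. In all 3 gamma A genes replicate 2 was the highest Flpo library and lay within the range of the Cre libraries or above it. The alpha gene PCDHA9 had the same arrangement, with 42.2, 23.9 and 12.3 CPM for Cas9, 21.3, 33.1 and 53.0 CPM for Cre and 9.93, 30.4 and 10.8 CPM for Flpo. PCDHB2 was highest in Flpo replicate 3, with 15.4, 13.3 and 11.5 CPM for Cas9, 10.3, 7.55 and 8.04 CPM for Cre and 16.3, 9.21 and 24.8 CPM for Flpo.

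These calls rested on few libraries. Leaving out Cre replicate 2, Cre replicate 3, Flpo replicate 1 or Flpo replicate 3 left 0 of the 15 then tested genes past the threshold in edgeR, with 9, 5, 8 and 7 at an unadjusted p under 0.05. Of all genes tested, 4721 of 13691, 3359 of 13796, 3233 of 12431 and 3280 of 12352 had an unadjusted p under 0.05. Calls over all genes went the same way in these fits, with 0%, 0%, 0% and 3.28% past the threshold. The log2 fold changes stayed large, at 3.68, 3.78, 3.98 and 3.66 for PCDHB13 and 3.48, 3.04, 3.25 and 2.996 for PCDHB9. Without Cas9 replicate 2 or 3 only PCDHB9 and PCDHB13 passed, where 10% and 19.5% of all genes did, and without Cas9 replicate 1 there were 7, where 24.5% of all genes passed. Without Flpo replicate 2, 10 of 15 passed, where 44.1% of all genes did. They were the 4 above with PCDHB1, PCDHGB6, PCDHA9, PCDHGA6 and PCDHGA8, all higher in Cre, and PCDHGC3, lower. Without Cre replicate 1, PCDHB11 was lost and PCDHGB6 gained, where 22.7% of all genes passed. With the log2 total among the covariates 0 passed, as did 0% of all genes, with PCDHB13 at 0.93 and PCDHB9 at 1.27. Because the totals of the Cre and Flpo groups did not overlap, depth and group cannot be told apart here.

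Between Flpo and Cas9, none of the 14 genes passed in edgeR's test, and 0.227% of all genes did (0.218% higher and 0.0084% lower in Flpo). At an unadjusted p under 0.05 there were 4 of the 14, where 2378 of all 11905 genes were. The 4 were PCDHB9 and PCDHB13, with log2 fold changes of −2.31 and −2.45, and PCDHA4 and PCDHB11, at 3.399 and 1.98. Their edgeR adjusted p-values were 0.137, 0.125, 0.139 and 0.139. The 14 had a median of −0.62, against 0.05 over all genes, with 10 negative and 4 positive. PCDHB11 was the only 1 of the 14 whose groups did not overlap, where 25% of all genes did not. DESeq2 placed PCDHB9 and PCDHB13 past the threshold, where it called 8.95% of all genes. Without Flpo replicate 2, 5 of 15 genes passed in edgeR (21.3% of all genes): PCDHB1, PCDHB9, PCDHB13 and PCDHA10, lower in Flpo, and PCDHB11, higher.

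The values of PCDHA4 turned on a single library. This alpha gene (chromosome 5, 140806929 to 141012344) had 413, 5332 and 387 counts in Flpo replicates 1, 2 and 3. In CPM these are 71.2, 1363 and 61.7. The Cas9 replicates were at 76.0, 28.1 and 38.5 CPM and the Cre replicates at 34.0, 262 and 44.4 CPM. With Flpo replicate 2 the log2 fold change of Flpo against Cas9 was 3.399 (SE 1.18), and without it 0.48 (SE 0.72). Between Cre and Flpo the value turned from −2.19 to 0.68 without that library. The gene's longest annotated transcript is a single exon of 10557 bases, with a repeated share of 2.84% over its transcripts.

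Between Cre and Cas9, 0 of the 14 genes passed in edgeR's test, as did 0% of all genes. At an unadjusted p under 0.05 there were 0 of the 14, where 879 of all 11905 genes were. DESeq2 also called 0 of the 14, where it called 0.0336% of all genes. The median log2 fold change of the 14 was 0.64, against −0.22 over all genes, with 11 positive and 3 negative. The largest differences were −1.73 in PCDHGC3, 1.58 in PCDHB13 and 1.51 in PCDHGB6, with standard errors of 0.82, 0.77 and 0.80 and an edgeR adjusted p of 0.619 each. Values did not overlap in PCDHB2 and PCDHGB6, 2 of the 14, where 9.84% of all genes did not overlap. Other settings changed the number of protocadherin genes past the threshold together with the background. DESeq2 called 7 between Cre and Flpo, where it called 33.4% of all genes. In edgeR, 7 passed between these groups without a filter on low counts (14.2% of all genes), 2 with only their 6 libraries (16.9%), 6 without TMM (24.2%) and 3 with the replicate number as a block (13.2%). Without a filter on low counts, 51 genes could be tested, and 1 passed between Cre and Cas9 and 3 between Flpo and Cas9, where 0.201% and 4.6% of all genes passed. Limma's voom fit with sample quality weights called 5 between Cre and Cas9 and 12 of 14 between Cre and Flpo, where it called 33.3% and 67.6% of all genes. Between Flpo and Cas9, 0 protocadherin genes passed in edgeR without TMM (0.101% of all genes), with a minimum count of 30 (0.145%) or with the replicate number as a block (0.0504%). The same held without Cas9 replicate 3 (0.591%), Cre replicate 1 (0.268%) or Cre replicate 3 (0.087%). In these 6 fits 3 to 6 protocadherin genes had an unadjusted p under 0.05, where 1785 to 2955 of 8285 to 13796 genes tested did.

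All 3 comparisons share libraries, since each group enters 2 of them, so their values for a gene are not independent of each other.

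The C-type genes were led by PCDHGC3, the only tested gene with no repeated words. It stood at 8.31, 13.8 and 30.5 CPM in the Cas9 replicates, 6.81, 11.2 and 0.858 CPM in the Cre replicates, and 25.6, 13.3 and 24.2 CPM in the Flpo replicates. Every Flpo library lay above every Cre library. The log2 fold change between Cre and Flpo was −1.97 (SE 0.81), and edgeR's adjusted p was 0.0928. Counts of 3.0 and 1.0 in Cre replicates 2 and 3 stand behind the low values, at or under a floor of 3 counts. That floor corresponds to 11.2 and 2.57 CPM. PCDHGC4 had counts only in Flpo replicates 1 and 3, of 4.9 and 25.0, and PCDHGC5 only in the same libraries, of 1.4 and 4.8. PCDHAC1 had at most 9.96 counts and PCDHAC2 at most 17, both in Flpo replicate 3.

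Among untested genes the most counts belonged to PCDHA12, an alpha gene. It had 4.3, 18.8 and 38.8 counts in the Cas9 replicates, 7.6, 19.4 and 10.5 in the Flpo replicates, and 0 in all 3 Cre replicates. In Cre replicate 2 the floor of 3 counts is 11.2 CPM, above the Cas9 mean of 8.48 ± 4.23 CPM (SD, n = 3), so absence there was not detectable at this depth. In Cre replicates 1 and 3 the floor is 1.46 and 2.57 CPM, below the Cas9 values of 3.60, 10.8 and 11.1 CPM. In the fit without a filter on low counts PCDHA12 was called lower in Cre than in both other groups. In the gamma A subfamily the next gene after PCDHGA6, PCDHGA8 and PCDHGA5 by mean level was PCDHGA1, at 0.90 CPM. In the gamma B subfamily, after PCDHGB6, PCDHGB5 stood at 0.52, PCDHGB4 at 0.25 and PCDHGB7 at 0.18 CPM. PCDHGB5 had 5.3 and 23.8 counts in Flpo replicates 1 and 3 and none elsewhere. PCDHGB4 had 8.93 counts in Flpo replicate 2 alone, and PCDHGB7 had 3.28 in Cas9 replicate 3 and 1.48 in Cre replicate 1. PCDHGA1 had at most 4.26 counts, in Cre replicate 1.

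Per kilobase of the longest transcript, the mean level over the 9 libraries was 20.8 CPM for PCDHA4, 15.9 for PCDHB1, 13.1 for PCDHGA6, 12.3 for PCDHB9 and 8.34 for PCDHB13. The other 9 tested genes lay between 1.06 and 3.82. Without Flpo replicate 2 the level of PCDHA4 was 7.30 CPM per kilobase, below PCDHB1 at 16.4, PCDHB9 at 13.2, PCDHGA6 at 12.7 and PCDHB13 at 9.14. The order is a description only, since the transcripts behind the counts are not known.

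The share of a gene's counts that came from the Flpo libraries varied widely among the tested genes. The Flpo libraries held 70.7% of all counts in the table. PCDHB2, a beta gene, and PCDHGC3 came close, at 71.4% and 68.9%. PCDHB11 and PCDHA4 were above, at 88.1% and 92.9%. The other 10 tested genes were below, from 17.6% in PCDHB13 and 18.9% in PCDHB9 to 55.8% in PCDHGA5. The summed level of all 13 genes with a repeated share above 1% was 816 ± 333 CPM in Cre, 461 ± 262 in Cas9 and 719 ± 878 in Flpo (SD, n = 3 each). The Flpo mean was 212 CPM without replicate 2, in which PCDHA4 was high. The 41 genes with at most 1% repeated words were lowest in Cre, with 16.3 ± 8.53 CPM in Cre, 39.4 ± 17.7 in Cas9 and 45.4 ± 11.9 in Flpo (SD, n = 3 each). The highest Cre library, at 23.3 CPM, lay above the lowest Cas9 library, at 20.8 CPM, and below every Flpo library. The Cre sums rest on few counts, 47.8, 5.0 and 7.9 in replicates 1, 2 and 3. PCDHGC3 alone held 14.0, 3.0 and 1.0 of these. In Cre replicate 2 the floor of 3 counts is 11.2 CPM, against a sum of 18.7 CPM.

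Genes outside the family also differed by repeated share. Between Cre and Flpo, 9.39% of tested genes with a repeated share above 1% were called higher in Cre and 10.3% lower, with a median log2 fold change of 0.34. Of genes with at most 1%, 1.87% were called higher and 19.6% lower, with a median of −1.18. A difference of the protocadherins from other genes with repeated sequence was not tested. This split was chosen after the values were seen.

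Genes known to act on the clusters are read against the 20.5% of all genes that passed between Cre and Flpo. CTCF, which binds their promoters and enhancers, was at 59.2 to 99.8 CPM in all 9 libraries. Of 11 genes of CTCF and cohesin, 1 passed between Cre and Flpo: SMC3, a core cohesin subunit, was lower in Cre, with a log2 fold change of −2.27 (SE 0.65, edgeR adjusted p = 0.0309). Among the genes of DNA methylation and silencing given here, EHMT2, a histone methyltransferase, was higher in Cre by 1.56 (SE 0.51, edgeR adjusted p = 0.0482). SMCHD1, a silencing protein of these clusters, and DNMT3B, a DNA methyltransferase that marks their promoters, did not pass. In the 2 comparisons with Cas9, edgeR placed 0 genes of either list past the threshold, and 1, EHMT2, had an unadjusted p under 0.05, between Flpo and Cas9. Of all 11905 genes, 2378 had an unadjusted p under 0.05 in that comparison.

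Of 12 non-clustered protocadherins, which are single genes outside the clusters, 4 could be tested (PCDH7, PCDH9, PCDH10 and PCDH11X) and edgeR placed 0 of them past the threshold in any comparison and 0 at an unadjusted p under 0.05. Their median log2 fold change between Cre and Flpo was 0.05. Between these groups 4734 of all 11905 genes had an unadjusted p under 0.05. Of 17 partners and proteases of the protocadherin cytoplasmic domains, 16 were tested, and 5 passed between Cre and Flpo, 1 higher and 4 lower in Cre, where 6.17% of all genes were called higher and 14.3% lower. MARCKS, a substrate of protein kinase C, was higher in Cre by 1.498. NCSTN and PSENEN, subunits of gamma-secretase, the protease that releases the cytoplasmic domain, were lower, with log2 fold changes of −4.05 and −1.68. WASF1, of the WAVE actin-regulating complex, and AXIN1 were lower too, at −3.26 and −2.30. In each of the 2 comparisons with Cas9, edgeR placed 0 of the 16 past the threshold and 2 at an unadjusted p under 0.05. Of all 11905 genes, 879 for Cre and 2378 for Flpo had an unadjusted p under 0.05 against Cas9. The 16 had a median of −0.96 between Cre and Flpo, against −0.34 over all genes.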

How the data were processed

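The deposited table holds estimated counts per gene symbol for 9 libraries, not normalized. The submitters' processing notes name Salmon 0.14.1 and hg38, with no role; the annotation, strand use and filters are not given in the sources used here. Per the labels' protocols, RNA was extracted in TRIzol and prepared with a TruSeq kit. Between 47.7% and 60.1% of the values above 0 in a library were not whole, and the counts of members that share sequence are uncertain. Columns were matched to samples by title.

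The design had been written for counts; the estimated counts were rounded, and the quasi-likelihood test of edgeR 4.0.16 under R 4.3.3 was fitted to the 9 libraries with TMM, after edgeR's default filter (minimum count 10, minimum total 15), which left 11905 genes. Adjusted p-values are Benjamini-Hochberg values over all of them, with a threshold of 0.05. Standard errors are the absolute log2 fold change over the square root of F. The code was tested on simulated data. The members and lists were chosen with earlier results of these data known. The result of 1 gene of the silencing list is not reported here. Genes named were all members past the threshold, the 4 highest by mean CPM in the alpha, beta, gamma A and gamma B genes, and the 5 C-type genes; from each other list, up to 3 by smallest adjusted p, to which PSENEN and AXIN1 were added after their values were seen, as were genes named as examples or as background. Cell markers of HEK293, liver, fibroblasts, blood and neurons were read. Summed CPM of the blood markers ran from 40.4 to 253 and of the neuron markers from 10.1 to 63.6 over the libraries, and of the liver markers from 8.64 to 108, with 0 genes of these 3 lists past the threshold. Alternatives for the test numbered 8, with 9 further fits that each left out a library; the sums were also computed with other scalings; limma 3.58.1 and DESeq2 1.42.0 served for some. Floors cover counting error only.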

Additional observations from a re-analysis of the deposited data

How the results depend on the processing

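The count of protocadherin genes past the threshold between Cre and Flpo was 4. It was 7 with DESeq2, 7 without a filter on low counts, 2 with only the Cre and Flpo libraries, 0 with depth (the log2 total) as a covariate (1 at an unadjusted p under 0.05) and 12 with limma voom and sample quality weights. The shares of all genes called in these fits were 33.4%, 14.2%, 16.9%, 0% and 67.6%, against 20.5%. With depth as a covariate, 732 of all 11905 genes had an unadjusted p under 0.05. Leaving out each library in turn gave 0 to 10, where 0% to 44.1% of all genes passed. Without TMM there were 6, all higher in Cre, against 3 of 4 with TMM, where 24.2% of all genes passed without TMM. Between Flpo and Cas9 the count was 0, and it was 2 with DESeq2 (8.95% of all genes), 3 without a filter (4.6%) and 11 with quality weights (61%). It was 0 to 5 when a library was left out (0% to 21.3% of all genes). Between Cre and Cas9 it was 0, and it was 1 without a filter (0.201% of all genes) and 5 with quality weights (33.3%). Every fit without a library gave 0, and 0% of all genes. The cause of these shifts was not tested. PCDHB9 and PCDHB13 kept their direction in all 17 alternatives and passed in 12, with edgeR, limma or DESeq2 adjusted p from 5.08e-07 to 0.868 and from 5.27e-07 to 0.892. PCDHA10 passed in 7 of 17 (adjusted p from 5.72e-06 to 0.928 by the same tools) and PCDHB11 in 5 of 16 (0.00657 to 0.846), both always in the same direction.

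Replicate numbers come from the titles. Deviations of same-numbered libraries correlated on average at −0.331 between Cre and Cas9, −0.093 between Flpo and Cas9 and 0.115 between Cre and Flpo. These averages give no clear sign that the numbers pair the samples, and 3 libraries per group cannot exclude pairing. Cre replicates 1 and 2 correlated best with the same number in Flpo, at 0.368 and 0.193, and Flpo replicate 3 with Cas9 replicate 3, at 0.527. The other libraries correlated best with a different number. With the replicate number as a block, 0, 0 and 3 genes passed in these comparisons (the 3 were PCDHB9, PCDHB13 and PCDHGB6), where 0%, 0.0504% and 13.2% of all genes did.

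Without TMM factors the summed beta level differed by 2.74 between Cre and Flpo on the log2 scale, and the gamma level by 1.58 between Cre and Flpo and −0.90 between Flpo and Cas9. The alpha difference turned from −0.37 to 0.42 between Cre and Flpo without TMM, and to 0.93 without Flpo replicate 2 and 0.08 without Cre replicate 1. Between Flpo and Cas9 it turned from 0.97 to −0.33 without Flpo replicate 2. These alpha shifts, and those of the other sums under other settings, were smaller than the spread between replicates. Depth limits the 40 untested genes, since 3 counts correspond to 0.479 CPM in Flpo replicate 3 and to 11.2 CPM in Cre replicate 2.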
